A study of Homo sapiens with 4 samples.

Results

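Amino acid transporters of the solute carrier (SLC) families 1, 3, 7, 36, 38 and 43 were followed in U87, a human glioma cell line, after 6 h in low glucose. One group, shGlud1, carried a short hairpin RNA against GLUD1, the gene of mitochondrial glutamate dehydrogenase, and the other, shNT, carried a control hairpin. There were 2 libraries of poly-A RNA in each group, and nothing in the labels tells whether a group's libraries were grown as separate cultures. The p-values therefore cover the spread between these libraries alone, which may be technical. All rows of the deposited gene table whose symbol belonged to the SLC1A, SLC3A, SLC7A, SLC36A, SLC38A or SLC43A series were taken, which gave 40 genes of 57820, with no symbol repeated. Of these, 23 had enough counts to be tested.

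Cells take up amino acids through carriers that either couple transport to a sodium or proton gradient or exchange one amino acid for another. The SLC7 light chains include exchangers that reach the plasma membrane only when bound to a heavy chain, which for most of them is the SLC3A2 product, the CD98 heavy chain. SLC7A11 in that complex brings in cystine for glutathione synthesis in exchange for glutamate, SLC7A5 exchanges large neutral amino acids, and SLC1A5 and the SLC38 carriers move glutamine. Several of these genes are known targets of ATF4, a transcription factor that amino acid stress induces. The set reaches beyond amino acid carriers of the plasma membrane: SLC38A7 and SLC38A9 act at the lysosome, and SLC43A3 transports purine nucleobases.

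The libraries held between 16546849 and 18537314 expected counts, which are estimates of the reads from each gene and can be fractional. Levels are given as CPM, counts scaled to a common library size with TMM factors, which lay between 0.826 and 1.24, and level comparisons between genes as CPM per kilobase of the longest annotated transcript. Log2 fold changes give shGlud1 relative to shNT, each with a standard error (SE), and a gene was called when its adjusted p in edgeR's quasi-likelihood test, taken over all 14616 genes tested, was under 0.05. GLUD1 was at 34.0 and 44.5 CPM in the shGlud1 libraries, against 78.1 and 76.5 CPM in the shNT libraries, so both shGlud1 libraries lay below both shNT libraries. In such bulk RNA, a lower level in every cell and fewer cells with a high level cannot be told apart. Fold changes over all genes rose with transcript length (Spearman correlation 0.447 across genes, which are not replicates). The ratio of shGlud1 replicate 2 to replicate 1 also rose with it (0.332). Of 8 markers fixed for glioma lines, VIM, NES, CD44 and FABP7 had a mean above 1 CPM, while the neural stem cell gene SOX2 was at 0 in every library and GFAP, S100B and OLIG2 stayed under 0.4 CPM. The glioma list, mostly VIM, summed to 5212 to 5739 CPM in shGlud1 libraries and to 3016 to 3160 CPM in shNT libraries. VIM alone was at 4435.7 and 4915.3 CPM in shGlud1 libraries, against 2424.5 and 2279.4 CPM in shNT libraries. VIM and NES were called higher, FABP7 was called lower and CD44 was not called. Lists for other cell types summed to less. Neuron markers, mostly GAD1, summed to 21.4 to 23.1 CPM in shGlud1 libraries and 34.4 to 37.6 CPM in shNT libraries. GAD1 was called lower and RBFOX3 higher, while SYT1 and SNAP25 were not called. Microglia and macrophage markers, mostly CSF1R, summed to 6.35 to 8.25 CPM in shGlud1 and 10.8 to 11.7 CPM in shNT libraries. CD14 was called lower and CSF1R was not called. Endothelial markers summed to 2.65 to 3.15 CPM in shGlud1 and 1.96 to 2.12 CPM in shNT libraries. Epithelial markers, mostly KRT8, summed to 22.5 to 27.2 CPM in shGlud1 and 38.4 to 39.6 CPM in shNT libraries. KRT8 and KRT18 were called lower and CLDN4 higher. Oligodendrocyte markers, mostly CNP, summed to 99.4 to 101 CPM in shGlud1 and 64.9 to 76.0 CPM in shNT libraries. AIF1, CX3CR1 and MOG were at 0 in every library, and the part of these lists in the transporter results was not tested.

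Transporter genes differed in both directions between shGlud1 and shNT cells, and the change furthest from 0 among the 23 tested was a fall of SLC3A2. Of the 23 genes tested, 13 were called, or 56.5%, against 61.0% of all genes tested. Lower calls numbered 9, or 39.1% against 29.1% of all genes, and higher calls 4, or 17.4% against 31.9%. Falls of at least 2-fold numbered 5, or SLC3A2, SLC38A5, SLC7A5, SLC7A11 and SLC1A4, and the rise of SLC1A1 was the only rise of that size. SLC38A5, also among the 9 lower calls, passed the filter on low counts through the shNT libraries alone, so its fall is no independent sign. Among all genes tested 12.8% fell and 14.9% rose by at least 2-fold. The median log2 fold change of the 23 was -0.19, against 0.06 for all genes tested. In 17 of the 23 the libraries of the groups did not overlap, as in 81.0% of all genes tested. By family, SLC1 had 1 higher and 2 lower calls among 4 tested, SLC3 had 1 lower call for the 1 gene tested, and SLC7 had 1 higher and 2 lower among 6. SLC38 had 2 higher and 3 lower among 7, SLC43 had 1 lower among 3, and neither of the 2 SLC36 genes tested was called.

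SLC3A2 (ENSG00000168003, GRCh38 chromosome 11, 62856102 to 62888875), the heavy chain gene, had 3177 and 3477 expected counts in the shGlud1 libraries, against 25348 and 27570 in the shNT libraries. These were 159 and 151 CPM in shGlud1 cells, against 1857 and 1802 CPM in shNT cells. Both shGlud1 libraries lay far below both shNT libraries, and the pairs were tight. The mean was 155 ± 5.57 CPM in shGlud1 cells and 1829 ± 38.9 CPM in shNT cells (SD, n = 2 each), an 11.8-fold fall. Its log2 fold change of -3.56 had an SE of 0.17 (edgeR's quasi-likelihood test, adjusted p = 7.01e-92). Of the 14616 genes tested, 66 had a lower fold change. In CPM, SLC3A2 ranked 986 and 951 among all rows in the shGlud1 libraries, against 104 in each shNT library. Its longest transcript has 2222 nt, which puts it in the shortest of 3 equal length classes of tested genes, whose median log2 fold change was -0.49. With the length trend removed its own was -3.21. No other gene of the annotation overlaps it. The other heavy chain gene, SLC3A1, partner of the cystine carrier gene SLC7A9, was at 0 in every library, as was SLC7A9.

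RefSeq (GRCh38.p14) gives SLC3A2 several starts. The window of the most downstream start holds a match to the antioxidant response element (TGACNNNGC) 37 bases before the start and, on the other strand, a match to the ATF4 composite element (TGATGNAA) 37 bases after it. They are shown because SLC3A2 carries the main change of the set, with matches in capitals, from chr11:62881449-62881670 and chr11:62881725-62881748 on the plus strand.
SLC3A2 upstream: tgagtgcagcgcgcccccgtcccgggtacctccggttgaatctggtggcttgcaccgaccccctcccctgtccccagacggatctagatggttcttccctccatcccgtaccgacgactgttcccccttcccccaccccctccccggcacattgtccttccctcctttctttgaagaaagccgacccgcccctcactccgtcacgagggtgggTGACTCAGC
SLC3A2 site after the start: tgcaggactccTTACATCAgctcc
The matches describe these letters and not binding.

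The fall of SLC3A2 changed the make-up of the whole transporter set. All 40 genes together took 0.114% and 0.125% of the expected counts in the shGlud1 libraries, against 0.256% in each shNT library. Without SLC3A2 the other 39 took 0.0954% and 0.107% in shGlud1 libraries and 0.103% and 0.104% in shNT libraries. The groups thus overlapped as shares of total counts, which leave out the TMM factors. Those factors were 1.151 and 1.245 in shGlud1 libraries and 0.8258 and 0.8454 in shNT libraries. Dividing by them puts both shGlud1 libraries below both shNT libraries, so the overlap does not hold in CPM. Per kilobase, SLC3A2 made up 24.2% and 22.9% of the set in shGlud1 libraries, against 70.7% and 70.5% in shNT libraries. SLC1A5 made up 28.5% and 27.8% in shGlud1 libraries, against 13.3% and 14.0% in shNT libraries. On this scale SLC1A5 stood above SLC3A2 in the shGlud1 libraries, at 83.3 ± 1.40 against 69.7 ± 2.51 CPM per kilobase, while in shNT libraries SLC1A5 was at 159 ± 2.51 and SLC3A2 at 823 ± 17.5. That order depends on the length used: per kilobase of the median transcript, SLC1A5 made up 12.2% ± 0.45 and SLC3A2 23.8% ± 1.33 of the set in shGlud1 libraries (SD, n = 2). Shares of the set within a library do not depend on how libraries are scaled, but they carry the trend of fold changes with transcript length. A fixed length per gene does not remove that trend. With 2 libraries against 2 an exact two-sided permutation test cannot go below 0.333, so the shares were not tested.

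**Figure D1:**
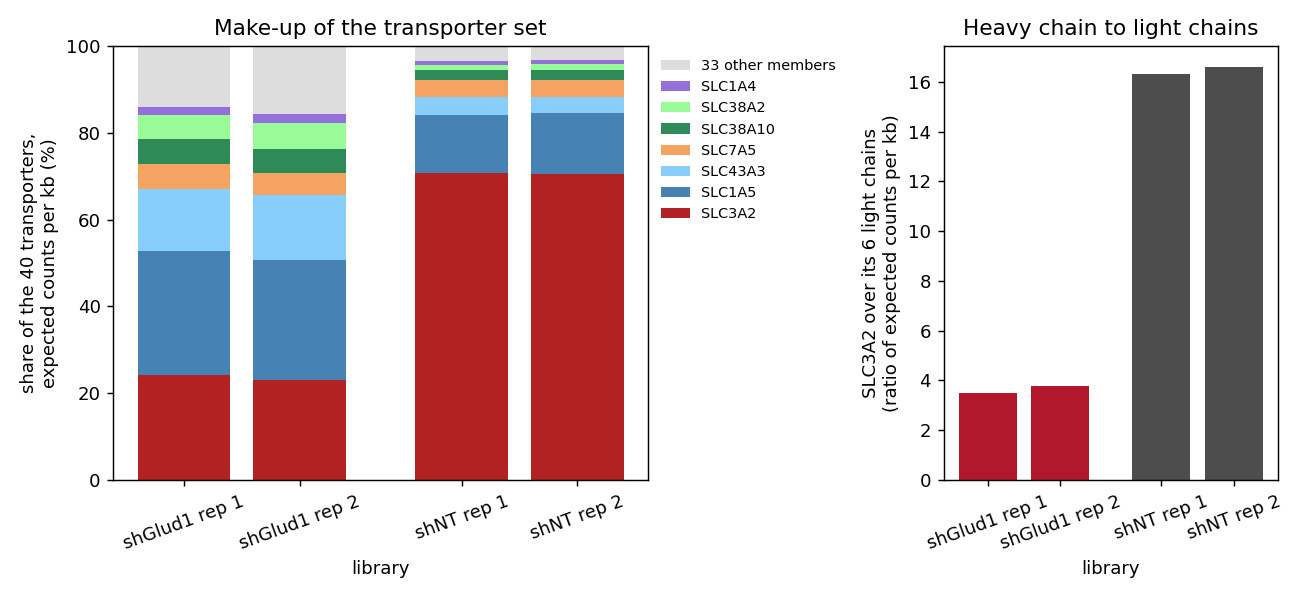
Left, the share (%) of the leading transporter genes, and of the rest in grey, in the expected counts per kilobase of all 40, by library; right, the ratio of SLC3A2 to the sum of its 6 partner light chains, on the same per kilobase scale. SLC3A2 fills 22.9% to 24.2% of the shGlud1 bars and 70.5% to 70.7% of the shNT bars, and the ratio is 3.50 and 3.78 in shGlud1 libraries against 16.3 and 16.6 in shNT libraries.

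Light chain genes of the SLC7 family fell less than the heavy chain gene, and not all of them fell. SLC7A5 (LAT1), which exchanges leucine and other large neutral amino acids, had 78.9 and 68.7 CPM in shGlud1 libraries, against 213 and 202 CPM in shNT libraries. It fell by 1.49 on the log2 scale (edgeR, SE 0.13, adjusted p = 5.49e-27). SLC7A11 (xCT), the cystine and glutamate exchanger, had 7.10 and 7.94 CPM in shGlud1 libraries, against 17.1 and 21.2 CPM in shNT libraries (-1.35, SE 0.19, adjusted p = 4.97e-12, edgeR). For both genes the groups were well apart. The other partners were low and not called: SLC7A6 at -0.19 (adjusted p = 0.436), SLC7A8 at 0.26 (0.532) and SLC7A7 at -0.53 (0.505), all by edgeR. SLC7A7 had only 3 to 14 expected counts in a library, and SLC7A10 was at 0 in every library. SLC7A6 shares 44.4% of its exonic bases with SLC7A6OS on the other strand, so its reads are uncertain without strand. SLC7A5 has pseudogene copies, of which SLC7A5P1 and SLC7A5P2 held at most 7 expected counts in a library.

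Per kilobase, SLC3A2 stood at 3.50 and 3.78 times the sum of its 6 partner light chains in shGlud1 libraries, against 16.3 and 16.6 times in shNT libraries. The ratio of heavy to light chain transcripts was thus lower in both shGlud1 libraries, as was the ratio to SLC7A5 alone, at 4.11 and 4.48 in shGlud1 libraries against 17.8 and 18.2 in shNT libraries. These ratios and the shares below carry the trend of fold changes with transcript length, which a fixed length does not remove. No ratio or share was computed with that trend removed, where SLC3A2 was at -3.21 and SLC7A6 was called lower. SLC7A5 was the most abundant of these light chains per kilobase in all 4 libraries. Its share among the 6 was 84.8% ± 0.54 in shGlud1 libraries and 91.4% ± 0.35 in shNT libraries (SD, n = 2 each). SLC7A11 held 4.09% ± 0.69 in shGlud1 libraries and 3.99% ± 0.73 in shNT libraries, a difference within the spread, though the gene itself was at -1.35. The shares of SLC7A6 (7.42% ± 1.04 in shGlud1 and 3.23% ± 0.32 in shNT) and SLC7A8 (3.03% ± 0.56 in shGlud1 and 0.97% ± 0.21 in shNT) were larger in shGlud1 libraries. Neither of those genes was called with TMM factors, and a share also grows when the leading member, here SLC7A5, falls. The light chain shares depend on the length used: per kilobase of the median transcript, SLC7A6 held 41.5% ± 4.12 in shGlud1 and 23.5% ± 1.94 in shNT libraries. SLC7A5 then held 49.2% ± 2.34 in shGlud1 and 68.9% ± 0.89 in shNT libraries (SD, n = 2 each).

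SLC7A1 (CAT1), a carrier of arginine and lysine that needs no heavy chain, had 52.2 and 58.6 CPM in shGlud1 libraries, against 46.4 and 42.7 CPM in shNT libraries. The rise was small (0.32, SE 0.13, adjusted p = 0.0302, edgeR), and SLC7A1 was not called with DESeq2 (adjusted p = 0.141) or with RLE factors (adjusted p = 0.0844, edgeR). With the length trend removed its log2 fold change was -0.16 (adjusted p = 0.276, edgeR), so its direction rests on the treatment of length. It was also not called without shNT replicate 1 (adjusted p = 0.0982), without shNT replicate 2 (0.279) or without shGlud1 replicate 2 (0.149), all by edgeR. The remaining SLC7 genes were not tested: SLC7A13 and SLC7A14 were at 0 in every library, and SLC7A2, SLC7A3 and SLC7A4 had at most 11 expected counts in a library.

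**Figure D2:**
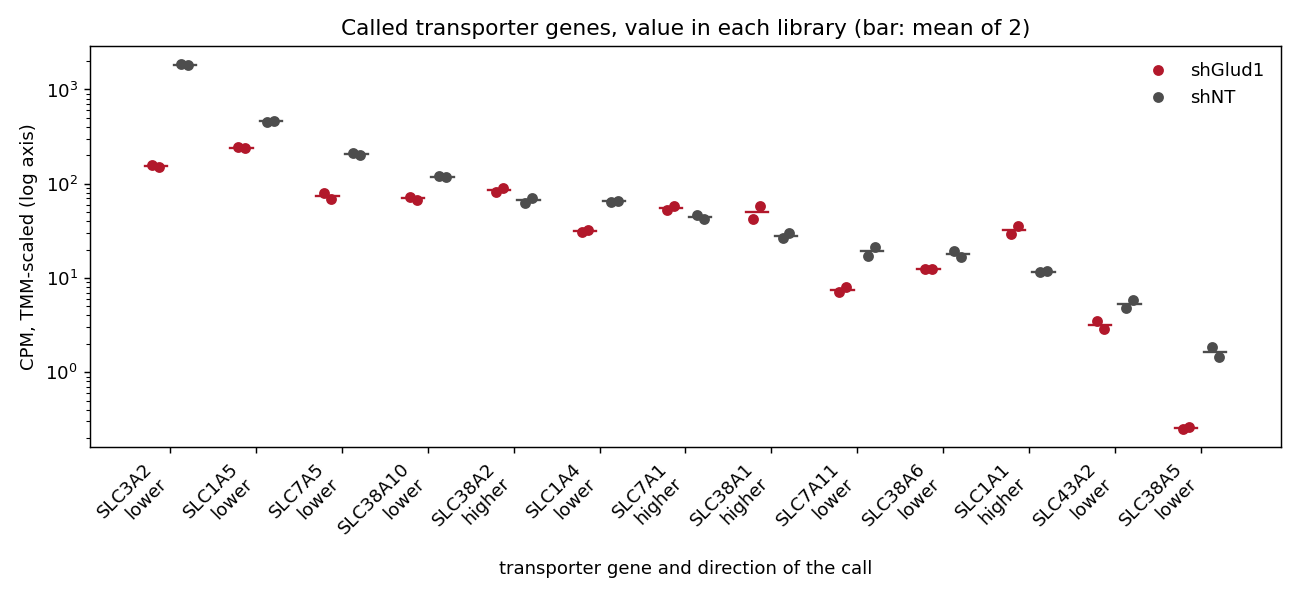
CPM in each library (points, log axis) for the 13 called transporter genes, ordered by their level in shNT, with shGlud1 left of shNT and a bar at the mean of 2 libraries. The points of the groups do not overlap for any of the 13, but these were picked by their call, which favours groups that stand apart. Among all genes tested, 81.0% did not overlap. The widest gap among genes above 5 CPM is that of SLC3A2, with 151 to 159 CPM in shGlud1 and 1802 to 1857 CPM in shNT.

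In the SLC1 family, the glutamate carrier gene SLC1A1 and the neutral amino acid carrier genes went opposite ways. SLC1A1 (EAAT3), which takes up glutamate and cysteine, had 29.4 and 35.5 CPM in shGlud1 libraries, against 11.5 and 11.9 CPM in shNT libraries. Both shGlud1 libraries exceeded both shNT libraries more than 2-fold (edgeR, log2 fold change 1.47, SE 0.16, adjusted p = 1.9e-18). SLC1A5 (ASCT2), a glutamine exchanger, had 243 and 237 CPM in shGlud1 libraries, against 453 and 464 CPM in shNT libraries (-0.93, SE 0.14, adjusted p = 4.36e-10, edgeR). SLC1A4 (ASCT1), which carries alanine, serine and cysteine, had 30.6 and 32.0 CPM in shGlud1 libraries, against 64.7 and 65.9 CPM in shNT libraries (-1.06, SE 0.13, adjusted p = 3.43e-14, edgeR). Within the last pair, SLC1A4 made up 6.10% ± 0.27 of the pair per kilobase in shGlud1 libraries and 6.62% ± 0.02 in shNT libraries (SD, n = 2 each). An antisense gene covers 23.4% of the exonic bases of SLC1A5, so part of its count is uncertain without strand.

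Of the carriers that clear glutamate in the brain, the astrocyte gene SLC1A3 (GLAST) was low, with 3.30 and 3.69 CPM in shGlud1 libraries, against 2.71 and 2.35 CPM in shNT libraries, and was not called (0.47, SE 0.31, adjusted p = 0.186, edgeR). The other astrocyte carrier gene, SLC1A2 (GLT-1), had at most 7 expected counts in a library, and SLC1A6 and SLC1A7 at most 3. Per kilobase, SLC1A1 made up 90.4% ± 0.65 of the SLC1 glutamate carriers in shGlud1 libraries and 83.0% ± 1.47 in shNT libraries (SD, n = 2 each). The per kilobase ratio of SLC1A1 to SLC7A11, the genes of 2 routes by which cysteine or cystine enters, was 10.7 and 11.6 in shGlud1 libraries, against 1.74 and 1.45 in shNT libraries. These opposite changes put the libraries of the groups far apart on that ratio.

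The SLC38 family held the other rises. SLC38A1 (SNAT1), a sodium-coupled glutamine carrier, had 42.4 and 58.2 CPM in shGlud1 libraries, against 26.5 and 29.7 CPM in shNT libraries (0.84, SE 0.14, adjusted p = 7.25e-09, edgeR). The shGlud1 libraries differed from each other by more than the shNT libraries did, and replicate 2 was the higher. With the length and GC trends removed the gene was at 0.17 and not called (adjusted p = 0.208, edgeR); its longest transcript, of 8066 nt, lies in the longest of the 3 length classes, whose median was 0.52 on the log2 scale. SLC38A2 (SNAT2), the system A carrier known to be induced by amino acid starvation, had 80.8 and 89.7 CPM in shGlud1 libraries, against 62.5 and 70.9 CPM in shNT libraries. Its rise was small (0.35, SE 0.13, adjusted p = 0.0122, edgeR). It was not called with DESeq2 (adjusted p = 0.0648), with the length trend removed (0.13, adjusted p = 0.383, edgeR), without shNT replicate 1 (adjusted p = 0.262, edgeR) or without shGlud1 replicate 2 (0.0555, edgeR).

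Falls in the same family were those of SLC38A10, SLC38A6 and SLC38A5. SLC38A10 had 71.7 and 68.0 CPM in shGlud1 libraries, against 121 and 117 CPM in shNT libraries (-0.76, SE 0.13, adjusted p = 2e-08, edgeR). SLC38A6 had 12.3 and 12.4 CPM in shGlud1 libraries, against 19.1 and 16.8 CPM in shNT libraries (-0.54, SE 0.18, adjusted p = 0.00456, edgeR), and lost its call without shNT replicate 1 (adjusted p = 0.11, edgeR). SLC38A5 (SNAT5), a system N glutamine carrier, had 5 and 6 expected counts in shGlud1 libraries, against 25 and 22 in shNT libraries (-2.64, SE 0.60, adjusted p = 3.21e-05, edgeR). It passed the filter on low counts through the shNT libraries alone, so its fall is no independent sign. The lysosomal members were not called: SLC38A7, a glutamine exporter, was at -0.28 (adjusted p = 0.087) and SLC38A9, the arginine sensor upstream of mTORC1, at -0.00 (0.993), both by edgeR. Per kilobase, SLC38A2 made up 33.4% ± 1.04 of the family in shGlud1 libraries and 22.5% ± 2.29 in shNT libraries. SLC38A10 made up 31.2% ± 2.48 in shGlud1 libraries and 45.4% ± 0.51 in shNT libraries (SD, n = 2 each). SLC38A10 was thus the leading member by a clear margin in shNT libraries, while in shGlud1 libraries these members did not differ beyond their spread. Per kilobase of the median transcript, SLC38A2 led in shGlud1 libraries with 40.7% ± 1.12, against 27.0% ± 2.25 for SLC38A10 (SD, n = 2). SLC38A3, SLC38A4 and SLC38A8 had at most 3 expected counts in a library and SLC38A11 was at 0 in every library.

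Of the proton-coupled SLC36 and the uniporter-type SLC43 genes tested, SLC43A2 alone was called. SLC36A1 (PAT1), which exports small amino acids from lysosomes, was at -0.07 (SE 0.22, adjusted p = 0.807) and SLC36A4 at 0.32 (SE 0.30, adjusted p = 0.352), both by edgeR, and SLC36A2 and SLC36A3 were at 0 in every library. SLC43A2 (LAT4) had 3.50 and 2.86 CPM in shGlud1 libraries, against 4.76 and 5.82 CPM in shNT libraries (-0.74, SE 0.27, adjusted p = 0.0124, edgeR). It was not called with DESeq2 (adjusted p = 0.0548), without shNT replicate 2 (0.162, edgeR) or without shGlud1 replicate 2 (0.0974, edgeR). SLC43A1 (LAT3) was at 0.26 (SE 0.22, adjusted p = 0.301, edgeR). SLC43A3 was abundant, with 111 and 116 CPM in shGlud1 libraries, against 128 and 114 CPM in shNT libraries, and the groups overlapped (-0.09, SE 0.13, adjusted p = 0.554, edgeR). A protein-coding gene on the same strand, AP000781.2, shares 29.9% of its exonic bases, and its counts were not whole.

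**Figure D3:**
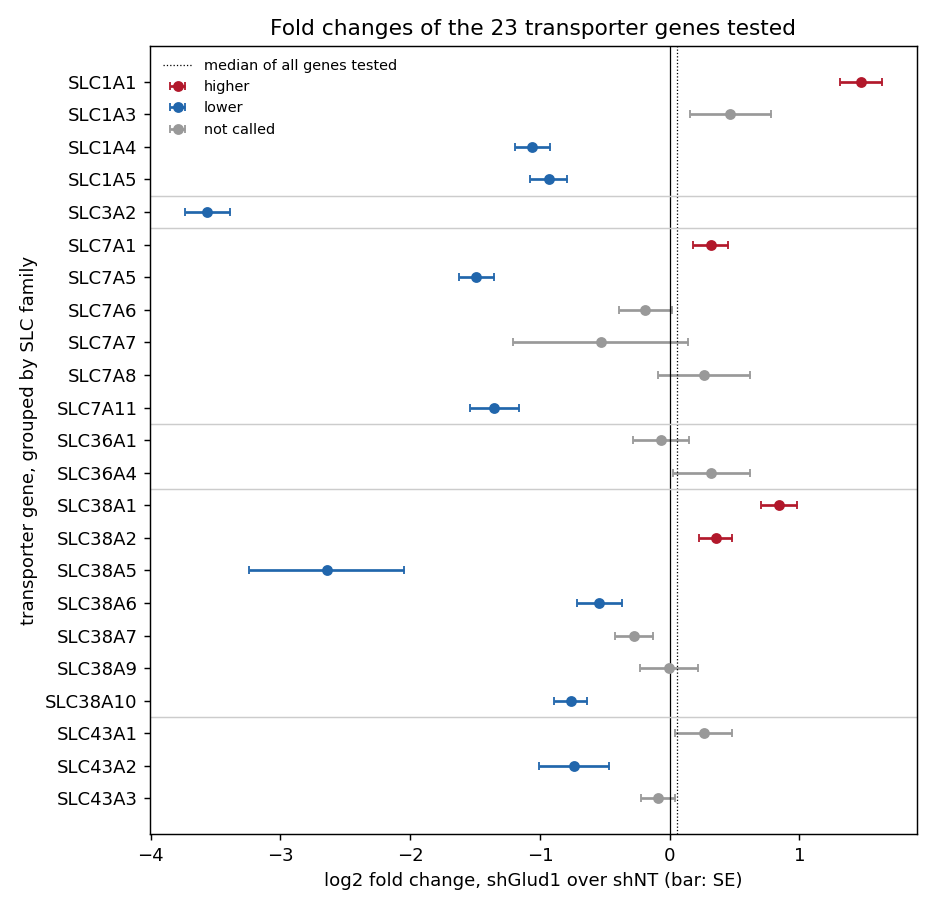
Log2 fold change, shGlud1 over shNT, with SE for the 23 transporter genes tested, grouped by family, with the median of all genes tested as a dotted line. SLC3A2 lies at -3.56 and SLC1A1 at 1.47, and within SLC1, SLC7 and SLC38 called genes lie on both sides of 0.

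Counting reads in total, with no further factor, moved all genes upward, to a median of 0.57 against 0.06 with TMM factors. The transporter median was then 0.33, which is -0.24 relative to all genes, as with TMM factors. On that scale 8 transporters were called higher and 6 lower, against 51.9% and 13.7% of all genes tested, or 14 against 65.6% in all. SLC1A3, SLC36A4, SLC43A1 and SLC43A3 joined the higher calls, and SLC38A10 (-0.25, adjusted p = 0.0554), SLC38A6 (-0.02, 0.935) and SLC43A2 (-0.22, 0.505) were no longer called lower (edgeR). SLC3A2 stayed at -3.04, SLC7A5 at -0.97, SLC7A11 at -0.83, SLC1A4 at -0.54 and SLC1A5 at -0.41 under total counts, and SLC1A1 was at 2.00. With the length trend removed 3 transporters were higher, against 31.6% of all genes, and 11 lower, against 24.3%, with SLC7A6 (-0.59, adjusted p = 0.0056) and SLC38A7 (-0.46, 0.00331) added to the lower calls and SLC43A1 (0.48, 0.0403) to the higher ones (edgeR). In all 14 were then called, against 55.9% of all genes. With the length and GC trends removed 2 were higher, against 33.8%, and 10 lower, against 23.5%, or 12 against 57.3% in all. Across the 23 genes, which share libraries, fold change and transcript length had a Spearman correlation of 0.187, and fold change and GC content one of -0.46.

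**Figure D4:**
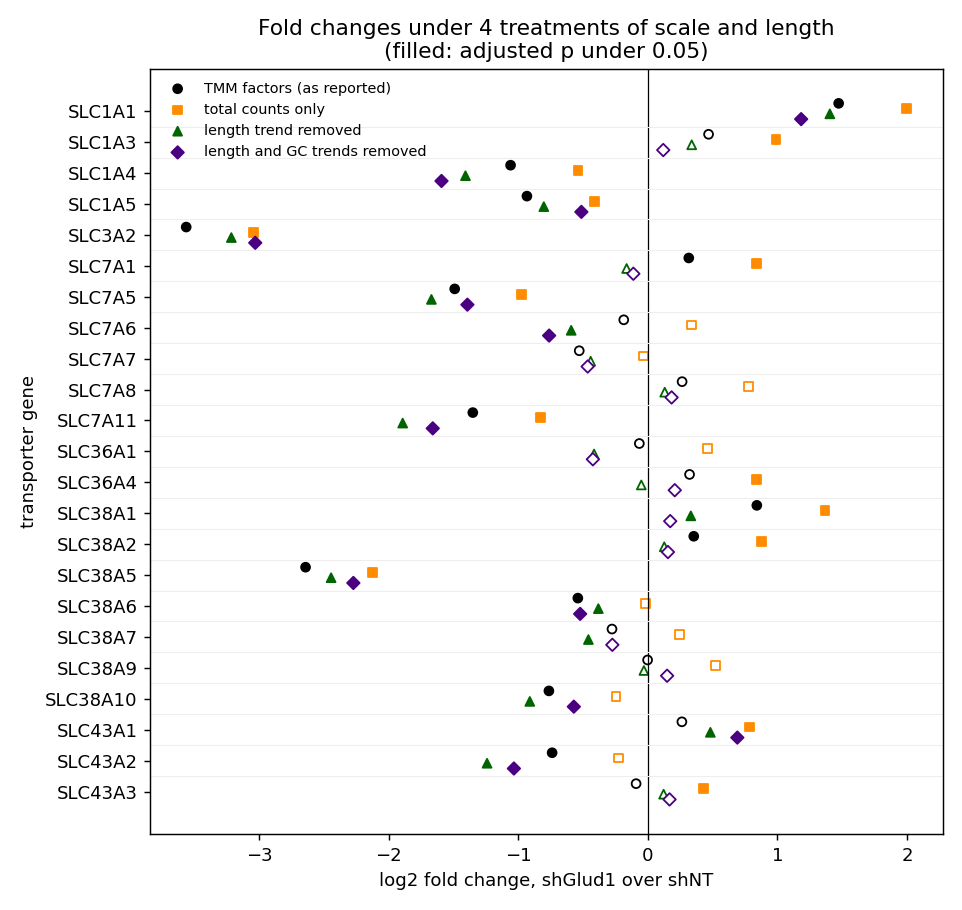
Log2 fold change of the 23 genes with TMM factors, with total counts, and with the trends on transcript length or on length and GC removed; filled symbols have an adjusted p under 0.05. SLC3A2 lies between -3.56 and -3.03 in all 4, while SLC7A1 lies at 0.32 with TMM factors and at -0.16 with the length trend removed.

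The 7 transporters known as ATF4 targets did not move as a block. SLC3A2, SLC7A5, SLC7A11, SLC1A4 and SLC1A5 fell, while SLC38A2 and SLC7A1 rose by 0.35 and 0.32, with the limits given above. Of 16 genes of the GCN2 and ATF4 response chosen with earlier results known, 13 fell and 2 rose, against 29.1% and 31.9% of all genes tested, with a median of -0.95. ATF4 itself fell to 288 CPM in shGlud1 libraries, against 1009 CPM in shNT libraries on average (-1.81). TRIB3 (-3.17), a pseudokinase that ATF4 and CHOP induce, and DDIT3 (-3.39), which encodes CHOP, fell with the lowest p-values. EIF2AK4, which encodes the amino acid sensing kinase GCN2, rose by 1.54, and VLDLR by 1.18. Under the 15 alternatives run 10 to 13 of the 16 were lower.

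Matches to the ATF4 composite element on either strand of the RefSeq window, from 250 bases before a start to 50 after, occurred in 3.62% of 35116 windows, and in 4.46% of the genes with one. Among tested transporters with a window, 3 of 8 that fell held a match, 2 of 4 that rose and 1 of 9 not called. The antioxidant response element, in 13.3% of windows and 16.1% of genes, occurred in 3 of 8 that fell, 1 of 4 that rose and 3 of 9 not called. Beside SLC3A2, the called genes with the first element were SLC1A4 and SLC1A5, which fell, and SLC38A1 and SLC7A1, which rose. Their sequences are shown so that matches in genes of both directions can be compared, 5′ to 3′ with matches to either element in capitals. They come from chr2:64989149-64989399 (plus strand), chr19:46784904-46785064 (minus strand), chr12:46266513-46266766 (minus strand), chr13:29595689-29595938 and, after the start, chr13:29595659-29595688 (minus strand).
SLC1A4: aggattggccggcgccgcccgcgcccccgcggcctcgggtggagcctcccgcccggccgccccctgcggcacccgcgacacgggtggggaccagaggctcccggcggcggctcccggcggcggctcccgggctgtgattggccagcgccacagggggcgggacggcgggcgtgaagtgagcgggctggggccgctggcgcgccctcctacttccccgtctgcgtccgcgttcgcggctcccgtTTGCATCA
SLC1A5: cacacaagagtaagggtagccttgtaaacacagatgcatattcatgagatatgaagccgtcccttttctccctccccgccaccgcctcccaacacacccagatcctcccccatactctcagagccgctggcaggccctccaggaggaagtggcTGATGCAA
SLC38A1: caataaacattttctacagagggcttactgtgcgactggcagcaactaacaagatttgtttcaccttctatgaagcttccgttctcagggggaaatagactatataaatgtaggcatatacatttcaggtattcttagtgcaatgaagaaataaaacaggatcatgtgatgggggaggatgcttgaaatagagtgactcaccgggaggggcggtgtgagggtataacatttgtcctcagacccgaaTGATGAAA
SLC7A1: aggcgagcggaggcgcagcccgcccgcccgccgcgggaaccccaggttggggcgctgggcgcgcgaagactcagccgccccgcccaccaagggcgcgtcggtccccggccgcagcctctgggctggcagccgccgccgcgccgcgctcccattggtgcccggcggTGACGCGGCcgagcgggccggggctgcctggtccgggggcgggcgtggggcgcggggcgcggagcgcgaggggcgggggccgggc
SLC7A1 after the start: gcactgcTGATGAAAcctggcgccggaacc
In SLC1A5 the match lies 97 bases before an internal start, and in SLC1A4 and SLC38A1 it runs across the start. The starts used for SLC1A4 and SLC38A1 also lie inside the annotated span of their gene. Genes that rose and genes that fell thus both held the letters.

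Glutathione and cysteine genes, and amino acid carriers outside the SLC families followed here, were described by lists chosen with earlier results known. Of 12 glutathione and cysteine genes tested 10 fell and 0 rose (median -0.98), against 29.1% and 31.9% of all genes tested. With total counts 7 were lower and 2 higher (median -0.46), and with the length and GC trends removed 7 were lower and 0 higher (median -0.40). CHAC1, which degrades glutathione, fell by 2.07 and CTH, which makes cysteine from cystathionine, by 1.86. CHAC1 is also on the list of the GCN2 and ATF4 response, so these lists are not independent. The genes GCLC (0.02, adjusted p = 0.939) and GSR (0.10, 0.533) were not called (edgeR). Of 9 tested amino acid carriers outside these families 3 rose and 4 fell (median 0.04), against 31.9% and 29.1% of all genes tested, and with total counts 4 were higher and 2 lower (median 0.56). Among them the peptide and histidine carrier SLC15A4 (0.90) and the taurine carrier SLC6A6 (0.40, and -0.03 with the length trend removed) rose, while SLC15A3 (-1.21) and the glycine carrier SLC6A9 (-0.99) fell.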

How the data were processed

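RNA-seq was made from 4 libraries of U87 cells, 2 labelled shGlud1 and 2 labelled shNT. Per the labels' protocols, poly-A RNA from 1 µg of total RNA was made into libraries with a TruSeq V2 kit and 12 cycles of PCR and sequenced as paired reads of 150 nt. The authors deposited expected counts for 57820 genes with human Ensembl IDs, and 20.1% of the nonzero values were fractional. The mouse build mm8 and Bowtie 0.12.2 are named per the submitters' processing notes, the build against the human IDs, and the counting program is not given in the sources used here. Without molecular identifiers, count limits cover counting error only. Where a gene had 0 counts, 3 counts in a library, 0.130 to 0.220 CPM, is the limit that this allows.

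Counts were rounded and tested in edgeR 4.0.16 (R 4.3.3) with filterByExpr (minimum count 10), TMM factors and the robust form of the quasi-likelihood test, fitting the groups alone, with Benjamini-Hochberg adjustment over all genes tested. The SE is the absolute log2 fold change over the square root of F. On simulated counts for 14616 genes with 200 changed, 41.8% of 1.5-fold, 82.1% of 2-fold and 93.9% of 4-fold changes were recovered and 9 unchanged genes called. The changed genes all had a mean above 1 CPM, and no length trend was simulated. In the data 61.0% of genes were called, so these rates need not hold there. The libraries of a group differed beyond sampling noise (chi-square per degree of freedom 13.9 for shGlud1 and 5.62 for shNT). Lengths came from GENCODE 29 by Ensembl ID (97.6% of tested genes). Promoters came from RefSeq (GRCh38.p14), where 31 of the 40 genes had a window with any member windows on chromosome 8 left out. SLC7A2 and SLC7A13, neither of them tested, lie on that chromosome. Length trends were lowess fits (span 0.3) per library. Members, lists and alternatives were chosen with earlier results of these data known. Named are GLUD1, every member, with library values where called at a mean of at least 5 CPM, and up to 2 members of each list that rose and 2 that fell by lowest p; values of a few uncalled or lower members and list genes were added after they were seen. Alternatives were DESeq2 1.42.0, limma-voom (limma 3.58.1), other factors and filters, the replicate block, each library left out, and length and GC trends removed.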

Additional observations from a re-analysis of the deposited data

How the results depend on the processing

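Of the 13 called transporters, 7 kept direction and call under all 15 alternatives run: SLC1A1 and, as lower, SLC1A4, SLC1A5, SLC3A2 (-3.62 to -3.03), SLC7A5, SLC7A11 and SLC38A5. For SLC38A5 this is no sign of stability, since it passed the filter through the shNT libraries alone. The share of all called genes that held likewise is not given here, so 7 of 13 has no background to be read against. Genes called in all numbered 7047 to 9592, against 8919. Higher calls were 4, and 2 with DESeq2, 8 with total counts, 2 with the length and GC trends removed and 2 to 4 with 1 library left out. The median of the tested transporters was -0.19, and 0.33 with total counts, 0.0053 with no filter, where 32 were tested, -0.42 with the length trend and -0.42 with the length and GC trends removed, and -0.28 to -0.0257 with 1 library left out. The difference in the SLC7A5 share of the light chains, shGlud1 minus shNT, was -6.66 points, and -19.7 with median transcript length, -7.43 with no length and -7.04 to -6.28 with 1 library left out. The replicate block made 9046 calls and changed no transporter call. Same-numbered libraries had a correlation of deviations of 0.0409 across genes. It rests on the replicate difference in each group alone, so it cannot tell whether the numbers pair the libraries.

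Opposite in sign to the reported value were, with total counts, SLC36A1 (0.46), SLC38A7 (0.24), SLC38A9 (0.52), SLC43A3 (0.43) and SLC7A6 (0.33). With the length trend removed these were SLC36A4 (-0.0509), SLC43A3 (0.12) and SLC7A1 (-0.16), and with length and GC SLC38A9 (0.15), SLC43A3 (0.17) and SLC7A1 (-0.11). SLC38A9, at -0.00, was also positive with upper-quartile factors (0.0192), no filter (0.0479) and the median length trend removed (0.0155). With 1 library left out SLC36A1 ran from -0.23 to 0.11, SLC38A9 from -0.26 to 0.20, SLC7A7 from -2.12 to 0.26 and SLC7A8 from -0.0544 to 0.53. Causes were not tested. Counts under about 15 in a library limit SLC7A7 and the 17 genes not tested.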

Other observations

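The amino acid sensing arm of mTORC1, the kinase complex that lysosomal and plasma membrane carriers feed, changed in both directions. Of 24 genes tested 8 rose and 11 fell, against 31.9% and 29.1% of all genes tested, with a median of -0.35, and 0.17 with total counts. SESN2, a leucine sensor that ATF4 induces, fell to 50.0 CPM in shGlud1 libraries, against 237 CPM in shNT libraries on average (-2.24), and FLCN, which acts on the Rag GTPases, fell by 2.00. RRAGA (1.12), a Rag GTPase, and GATSL3 (1.86), which encodes the arginine sensor CASTOR1, rose. All 5 LAMTOR genes, the Ragulator subunits that anchor the Rag GTPases, fell, by between 0.96 and 1.18, and 4 or 5 of them were lower under each of the 15 alternatives. Their median was -1.07, and -0.55 with total counts, -0.44 with the length trend removed and -0.30 with the length and GC trends removed. The longest transcripts of all but LAMTOR3 lie in the shortest of the length classes, whose median log2 fold change was -0.49.

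Of 8 tested genes for the breakdown of leucine, isoleucine and valine, which SLC7A5 carries, 2 rose and 2 fell (median 0.04), against 31.9% and 29.1% of all genes tested, and with total counts 5 were higher and 1 lower (median 0.56). DLD (0.85) and the aminotransferase gene BCAT1 (0.46, and -0.08 with the length trend removed) rose, and BCKDHA (-0.85) and IVD (-0.32, and 0.20 with total counts) fell.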
